A study of Mus musculus with 6 samples.

Results

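The genes described are the interleukins and interleukin receptors of the mouse array outside 7 key inflammatory members. A gene was taken when its probes carried 1 symbol that starts with Il and a digit, and Il1a, Il1b, Il1rn, Il6, Il10, Il12a and Il12b were set aside. This gave 54 of the 10698 genes with a single symbol, measured by 95 probes. By symbol, 22 were ligands, 29 were receptor chains (an r after the number) and 3 were neither: Il18bp, a soluble protein that binds and neutralises IL-18, Il6st, the gp130 chain that many receptors of the IL-6 family share, and Il4i1, a secreted amino acid oxidase. The cells were RAW 264.7, an established mouse macrophage line, written RAW 264.4 in part of the labels. Treated cells received 100 ng/ml lipopolysaccharide (LPS, from the bacterial outer membrane) together with 100 pM LPS-binding protein for 1 h, and control cells were left untreated and cultured for 1 h. Total RNA of both was hybridised together on each of 6 arrays, with the treated RNA in the red dye Cy5 on 3 and in the green dye Cy3 on the other 3, and a set number from 1 to 3 in the labels marks the 3 arrays of an orientation. All results concern 1 transformed line at a single time.

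Each value below is a log2 ratio of treated over untreated RNA, so that 1 is a doubling and -1 a halving, with the arrays that carried treated RNA in Cy3 turned in sign. The deposited values do not state their direction. The labels call Cy5 the test channel, which makes Cy5 the likely numerator, and every sign below would turn if it was not. The 2 arrays of 1 set number were averaged, which cancels a constant dye effect, and a mean ± SD is over 3 sets. Nothing in the labels makes the sets separate cultures. The p-values cover the spread of the 3 set means alone, and that spread may be technical. Differences between the 2 arrays of a set are averaged away. Same-numbered arrays did not deviate together (r = 0.020, -0.249 and -0.0587), so the p-values rest on a pairing that the ratios do not bear out. An exact 0, found in 8.99% to 23.9% of the probes of an array, was treated as missing. Of the 54 genes, 42 had at least 1 probe with a ratio on all 6 arrays (77.8%, against 77.9% of all genes), namely 15 ligands, 24 receptor chains and the 3 others. Array intensities were not analysed here, so the ratios give no level of expression, and the number of arrays limits the precision. As a check of the labelled cell type, all 15 macrophage markers on the array had ratios on all 6 arrays. The same held for 12 of 14 lymphocyte and natural killer cell markers and for 4 of 16 markers of fibroblasts, epithelium, mast cells and eosinophils, so a ratio alone does not separate the cell types. Of these lists, the macrophage gene Adgre1 (0.55 ± 0.11) and the lymphocyte genes Cd4 (0.47 ± 0.21) and Cd79a (0.20 ± 0.064) were higher and the macrophage gene Fcgr3 was lower (-0.21 ± 0.095), and the part of other cells in the results was not tested.

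Interleukins are secreted signals between leukocytes and other cells. Most act through receptors built of a specific chain and a shared chain, which activate Janus kinases and STAT transcription factors, whereas the IL-1 and IL-18 family signals through the adaptor Myd88 and the IL-17 family through its own adaptors. In macrophages, LPS acts on Toll-like receptor 4 and the transcription factor NF-kB to switch on inflammatory genes. IL-10 restrains that response, and IL-4 and IL-13 drive an alternative activation state.

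Upstream windows of 250 bases were taken from RefSeq (GRCm38.p6), whose promoter table held 42 of the 54 genes. Windows of 4 genes are shown because they belong to genes that changed and have an entry there. They are Il13ra2 and Il16, the receptor chain with the highest and the ligand with the lowest mean among genes with ratios on all 6 arrays, and Il7r and Il9, which had the highest ratios among genes lacking some arrays. All 4 lie on the minus strand and end just before the start of the gene, at chrX:147429193-147429442 for Il13ra2, chr7:83735540-83735789 for Il16 (the first of 3 listed starts), chr15:9529877-9530126 for Il7r and chr13:56482258-56482507 for Il9. Capitals mark a match to GGNNTTTCC or GGGANTTCC, forms of the NF-kB element, searched on both strands, and 1 stretch can match both.
Il13ra2: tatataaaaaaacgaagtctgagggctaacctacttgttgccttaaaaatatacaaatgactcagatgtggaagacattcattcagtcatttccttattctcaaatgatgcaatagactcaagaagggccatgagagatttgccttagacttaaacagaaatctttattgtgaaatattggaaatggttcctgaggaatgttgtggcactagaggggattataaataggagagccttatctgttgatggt
Il16: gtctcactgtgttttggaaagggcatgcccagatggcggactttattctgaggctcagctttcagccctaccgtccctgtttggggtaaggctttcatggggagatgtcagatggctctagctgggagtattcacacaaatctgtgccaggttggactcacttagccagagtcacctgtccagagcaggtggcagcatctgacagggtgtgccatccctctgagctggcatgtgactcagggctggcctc
Il7r: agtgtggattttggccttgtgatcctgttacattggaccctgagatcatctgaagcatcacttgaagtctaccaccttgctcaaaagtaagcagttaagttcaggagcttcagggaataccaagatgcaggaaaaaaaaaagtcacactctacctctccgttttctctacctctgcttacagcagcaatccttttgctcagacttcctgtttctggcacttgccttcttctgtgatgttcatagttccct
Il9: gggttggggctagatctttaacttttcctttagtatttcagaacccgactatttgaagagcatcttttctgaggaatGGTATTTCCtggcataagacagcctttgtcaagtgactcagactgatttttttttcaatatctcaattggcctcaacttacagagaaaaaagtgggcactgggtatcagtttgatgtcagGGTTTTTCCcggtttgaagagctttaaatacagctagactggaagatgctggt
Il9 held 2 matches to GGNNTTTCC, beginning 173 and 53 bases before its start, and the windows of the other 3 held none. Across the 42 genes with a window, 5 held a match (11.9%), namely Il9, Il13, Il17rc, Il18rap and Il1rl2, against 5.91% of all 27025 windows. Il13ra2, Il15ra, Il16 and Il1rapl2, which changed, were among those without one. Il10ra, Il10rb, Il12rb1, Il17ra and Il34, which also changed, had no window to search. A match is a description of the letters and not a binding site, and its absence says only that these letters are not in this window.

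After 1 h, 9 of the 42 measured genes had changed, all by less than a doubling. The receptor chains Il13ra2, Il10ra and Il10rb were higher in treated cells, and the ligands Il16 and Il34 and the receptor chains Il1rapl2, Il12rb1, Il15ra and Il17ra were lower. The test was limma's moderated test of the 3 set means against 0 over 8331 genes, with a Benjamini-Hochberg adjusted p under 0.05. It called 21.4% of these genes against 13.2% of all genes, with 3 of 42 higher (7.14%, against 6.96%) and 6 lower (14.3%, against 6.21%). Their mean ratios ran from -0.40 to 0.35, with 21 above and 21 below 0, and the median was 4.0e-07 against -0.0092 over all genes. Of the 7 genes set aside, 5 were higher, with a median over the 7 of 1.45, and 4 of the 7 kept 1 sign on all 6 arrays. Il1b reached 2.54 ± 0.16, whereas Il6 (0.073) and Il12b (0.016) lay within the range of the 42 genes. Il12a (0.352), which was also called higher, stood just above the highest mean of the 42 (0.348). Its arrays split by dye, with -0.53, -0.64 and -0.20 in Cy5 and 1.24, 1.15 and 1.10 in Cy3. Because the samples are bulk RNA, fewer cells that make a transcript and less of it per cell cannot be told apart.

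**Figure D1:**
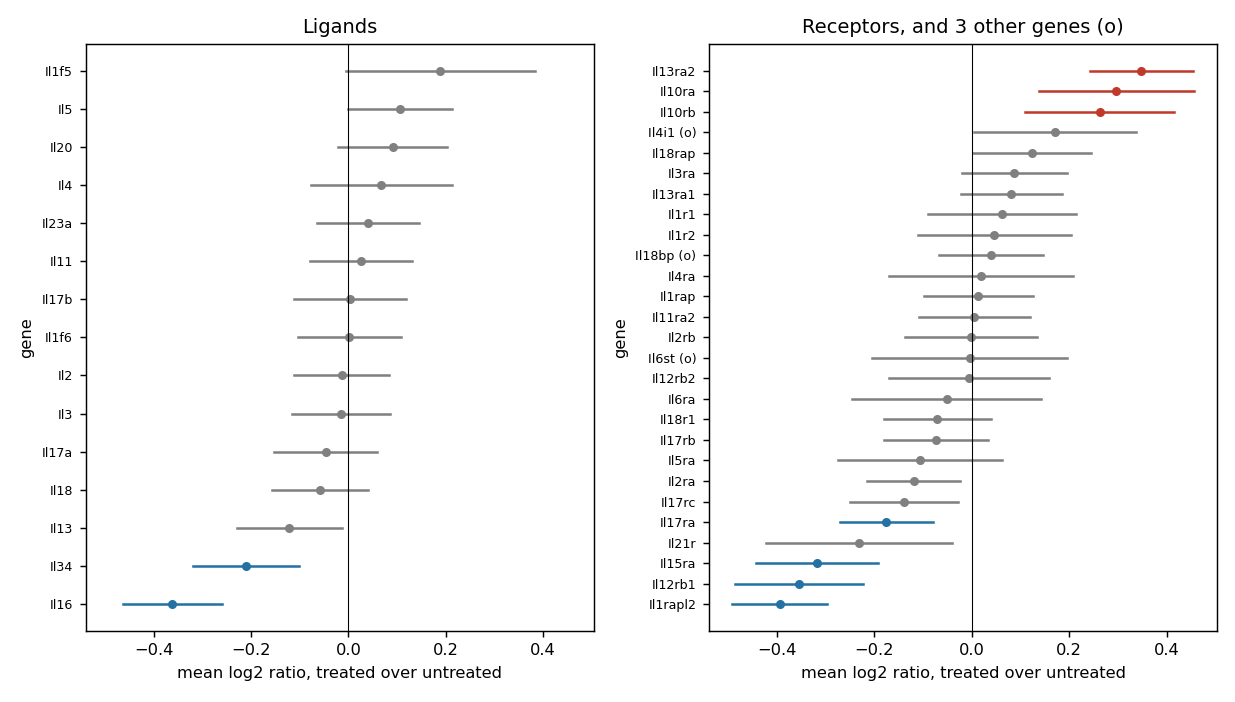
Mean log2 ratio of treated over untreated RNA (horizontal axis) with limma's 95% interval for the 42 genes measured on all 6 arrays (rows), ligands on the left and receptor chains with the 3 other genes on the right. Red marks the 3 genes that passed the test as higher, blue the 6 that passed as lower, and grey the rest; every mean lies between -0.40 and 0.35.

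The 33 genes that missed the threshold had narrow intervals in this fit. Their 95% intervals, taken over the 3 set means, all lay between -0.42 and 0.38 (1.34-fold lower and 1.30-fold higher). Of the 33 means, 24 were within 0.1 of 0. Averaging within a set hides differences between its arrays, and the sets may be technical. The intervals therefore do not bound the response of separate cultures. The half-width of the interval was 0.095 to 0.20 over the 42 genes. A sign held on all 6 arrays for 6 of the 42 genes (14.3%, against 19.1% of all genes), and only 3 of the 9 called genes were among these 6: Il16, Il12rb1 and Il10rb. For all 9, the means of both dye orientations had the same sign.

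Of the ligands, 0 of 15 were higher and 2 were lower (13.3% called), and of the receptor chains 3 of 24 were higher and 4 lower (29.2% called). The test called 13.2% of all genes, 6.96% as higher and 6.21% as lower, so the ligands were at that background. The median ratio was 0.0018 for ligands and -0.0040 for receptors, and the median size without sign was 0.058 and 0.097, against 0.069 for all genes. The means of ligands ran from -0.36 to 0.19 and those of receptors from -0.40 to 0.35. Fewer ligands could be measured: 68.2% had ratios on all 6 arrays, against 82.8% of receptors. These are descriptions of lists of 15 and 24 genes, and the difference between them was not tested.

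Il16, whose secreted form attracts cells that carry CD4, was the ligand with the clearest change. Its ratios were -0.43, -0.38 and -0.41 on the arrays of sets 1 to 3 labelled in Cy5 for treated RNA, and -0.37, -0.24 and -0.33 on those with it in Cy3. All 6 arrays were low, and each Cy5 array was lower than each Cy3 array, with orientation means of -0.41 and -0.32. The mean was -0.36 ± 0.044 (n = 3 sets), a 1.29-fold lower signal with an adjusted p of 0.00315. Both of its probes fell when tested alone, by 0.49 (adjusted p = 0.00175) and by 0.23 (adjusted p = 0.0232) on the log2 scale.

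Il34, a ligand of the receptor for colony-stimulating factor 1 on which macrophages depend, also fell. It stood at -0.33, -0.51 and -0.29 in the Cy5 orientation and at 0.052, 0.059 and -0.24 in the Cy3 orientation, so that each Cy5 array was lower than each Cy3 array. The mean was -0.21 ± 0.065 (1.16-fold lower, adjusted p = 0.0308). The call was lost on leaving out any 1 set, and in the Cy3 orientation alone the mean was -0.044 (adjusted p = 0.763).

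The other 13 ligands did not pass. Il13, which with IL-4 drives alternative activation, was below 0 on all 6 arrays, from -0.27 to -0.0049, with a mean of -0.12 ± 0.063 (adjusted p = 0.143). Its second probe, measured on 5 arrays, averaged 0.19, and with both probes the gene was at 0.010 (adjusted p = 0.906). Il1f5, an IL-1 family member that acts as a receptor antagonist of the IL-36 group and is now named Il36rn, had the highest mean, with 0.015, 0.15 and 0.075 in Cy5 and 0.31, 0.67 and -0.087 in Cy3. Its mean of 0.19 ± 0.21 had an adjusted p of 0.196, and the array at 0.67 stood above the other 5. Il18, an IL-1 family cytokine that macrophages store as a precursor, had a mean of -0.058 ± 0.031 (adjusted p = 0.412), with its Cy5 arrays at -0.44 to -0.16 and its Cy3 arrays at -0.021 to 0.36. Il23a, the specific subunit that forms IL-23 with the product of Il12b, had a mean of 0.04 ± 0.053 (adjusted p = 0.603). Cytokines of T cells and mast cells were near 0 too: Il2 was at -0.014, Il3 at -0.015, Il4 at 0.068 and Il5 at 0.11. The remaining means were -0.047 for Il17a, 0.0018 for Il1f6 (0.094 with a probe that lacks some arrays), 0.0033 for Il17b, 0.026 for Il11 and 0.091 for Il20.

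Among the 24 receptor chains with a probe on all 6 arrays, Il13ra2 had the highest mean. It encodes a chain that binds IL-13 tightly and is best known as a decoy. Its ratios were 0.23, 0.50 and -0.0037 in the Cy5 orientation and 0.43, 0.32 and 0.61 in the Cy3 orientation. Set 3 in Cy5 was near 0 and the other 5 arrays were all high. The mean was 0.35 ± 0.056 (1.27-fold, adjusted p = 0.00401), and its probes rose separately, at 0.37 (adjusted p = 0.00301) and 0.32 (adjusted p = 0.0115). In the Cy5 orientation alone the mean of 0.25 did not pass (adjusted p = 0.168). The chains that carry the IL-4 and IL-13 signal did not pass: Il13ra1 was above 0 on all 6 arrays at 0.081 ± 0.05 (adjusted p = 0.281), and Il4ra was at 0.019 ± 0.20 (adjusted p = 0.904).

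Both chains of the IL-10 receptor were higher. Il10rb, which is shared with receptors for IL-22 and type III interferons, was at 0.28, 0.39 and 0.079 in Cy5 and at 0.31, 0.40 and 0.12 in Cy3. All 6 arrays were above 0, and set 3 was the lowest in both orientations. The mean was 0.26 ± 0.15 (1.2-fold, adjusted p = 0.0448). Il10ra, the chain specific to IL-10, was at 0.16, -0.07 and 0.88 in Cy5 and at 0.20, 0.54 and 0.08 in Cy3. A single array stood at 0.88 and the others lay from -0.07 to 0.54. Its mean was 0.30 ± 0.16 (1.23-fold, adjusted p = 0.035). The Il10ra call needed the averaging of same-numbered arrays: at the same mean the adjusted p was 0.164 for 6 separate arrays and 0.201 with the set as a block by duplicateCorrelation. A second Il10ra probe, with no ratio on the set 2 array in Cy3, gave 0.29, 0.70 and 0.20 in Cy5 and 0.79 and 0.72 in Cy3, all above 0. Both calls were near the threshold. Without set 1 the values were 0.25 (adjusted p = 0.201) for Il10rb and 0.36 (adjusted p = 0.077) for Il10ra, without set 2 Il10rb stood at 0.20 (adjusted p = 0.118), and without set 3 Il10ra stood at 0.21 (adjusted p = 0.064).

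**Figure D2:**
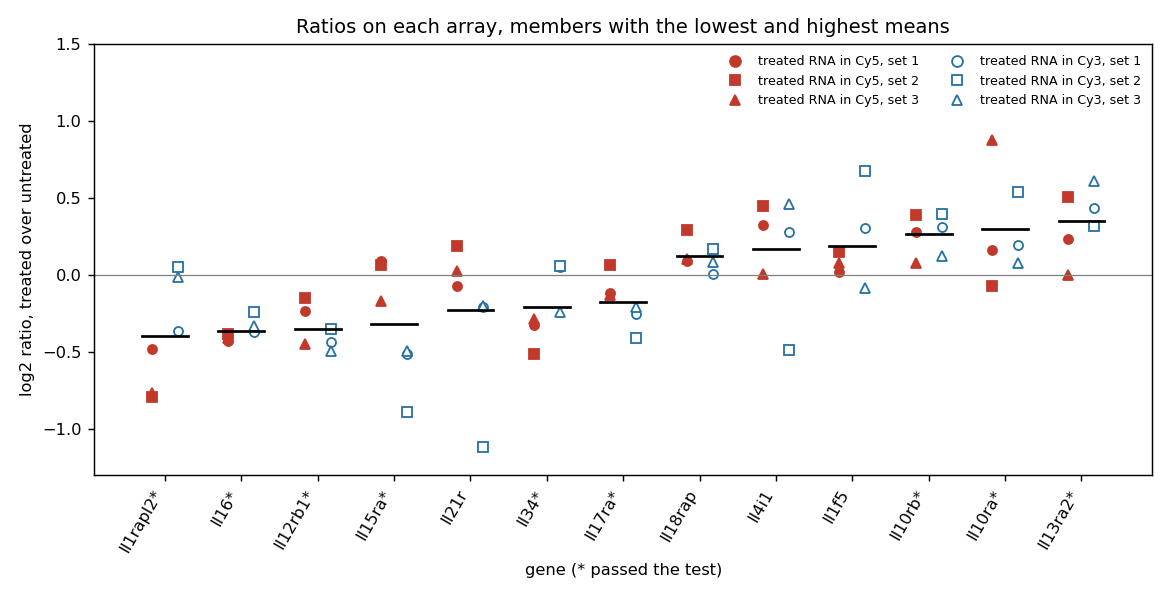
Log2 ratio of treated over untreated RNA on each of the 6 arrays (vertical axis) for the 6 genes with the highest and the 6 with the lowest mean and any further gene that passed the test; filled red symbols are arrays with treated RNA in Cy5, open blue ones in Cy3, circles, squares and triangles are sets 1, 2 and 3, the bar is the mean and an asterisk marks an adjusted p under 0.05. Il16 is tight below 0 on all arrays, Il10rb is above 0 on all arrays, and the Il15ra, Il21r and Il1rapl2 arrays separate by dye.

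Among the receptor chains that were lower, Il12rb1 had all 6 arrays below 0. It is the chain shared by the receptors for IL-12 and IL-23. Its ratios were -0.24, -0.15 and -0.45 in Cy5 and -0.44, -0.35 and -0.50 in Cy3, and the orientations overlapped. The mean was -0.35 ± 0.11 (1.28-fold lower, adjusted p = 0.00898), and its probes stood at -0.46 (adjusted p = 0.00278) and -0.25 (adjusted p = 0.051). Without set 1 the value was -0.36 and no longer passed (adjusted p = 0.066). Its partner chain for IL-12, Il12rb2, had a mean of -0.0063 ± 0.17 (adjusted p = 0.961) with arrays from -0.77 to 0.56.

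Il1rapl2, an IL-1 receptor-like gene known mainly from neurons, had the lowest mean of the 42 genes. It was at -0.48, -0.79 and -0.77 in Cy5 and at -0.36, 0.048 and -0.017 in Cy3, so the Cy5 arrays were all lower than the Cy3 arrays. The mean was -0.40 ± 0.025 (1.32-fold lower, adjusted p = 0.00183). Its small SD is over set means that average both orientations, whose own means were -0.68 and -0.11, and in Cy3 alone the call was lost (adjusted p = 0.497). A second probe of the gene had no ratio on any array. With exact 0 values kept as ratios the mean was -0.20 and still passed (adjusted p = 0.0422).

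Il15ra, which presents IL-15 to neighbouring cells, showed the opposite split. Its arrays were at 0.091, 0.066 and -0.17 in Cy5 and at -0.51, -0.89 and -0.49 in Cy3, without overlap between the orientations. The mean was -0.32 ± 0.10 (1.25-fold lower, adjusted p = 0.011), while the Cy5 mean alone was -0.0038 (adjusted p = 0.976). Il17ra, the chain common to the IL-17 receptors, was at -0.12, 0.067 and -0.13 in Cy5 and at -0.25, -0.41 and -0.21 in Cy3. Again all Cy3 arrays were lower than all Cy5 arrays. The mean was -0.18 ± 0.0086 (1.13-fold lower, adjusted p = 0.0358), and the call was lost on leaving out any 1 set and within each orientation. Here too the small SD is over set means that average both orientations, whose own means were -0.062 and -0.29.

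Il21r, the specific chain of the IL-21 receptor, had a lower mean than Il17ra and did not pass. Its ratios were -0.074, 0.19 and 0.026 in Cy5 and -0.21, -1.12 and -0.20 in Cy3, so 1 array of set 2 stood far below the rest. The mean of -0.23 ± 0.20 had an adjusted p of 0.117, and it was -0.11 without set 2.

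The other receptor chains did not pass and are given by family. In the IL-17 family, Il17rc, the partner of Il17ra, stood at -0.14 ± 0.069 (adjusted p = 0.107) and Il17rb at -0.074. In the IL-18 receptor, the accessory chain Il18rap was above 0 on all arrays, with 0.09, 0.29 and 0.10 in Cy5 and 0.0047, 0.17 and 0.084 in Cy3, and its mean was 0.12 ± 0.094 (adjusted p = 0.18). The binding chain Il18r1 was at -0.071. In the IL-1 receptor group, the signalling chain Il1r1 was at 0.062 ± 0.15 (adjusted p = 0.578), its accessory chain Il1rap at 0.013 and the decoy Il1r2 at 0.046 (0.18 with a probe that lacks some arrays). In the IL-2 receptor, the alpha chain Il2ra was at -0.12 ± 0.0069 (adjusted p = 0.109) and the beta chain Il2rb at -0.0018. The probes of Il2ra differed. One stood at -0.23 and passed when tested alone (adjusted p = 0.0181), and the other stood at -0.013 (adjusted p = 0.873). The arrays of Il2ra ran from -0.33 to 0.082, and its small SD is over set means that average both orientations. Il3ra stood at 0.087, and Il5ra at -0.11 ± 0.17 (adjusted p = 0.381) with 1 array at -0.76. The IL-6 receptor chain Il6ra was at -0.052 ± 0.21 (adjusted p = 0.722). Il11ra2 was at 0.0054, and it has near-identical copies in the mouse genome, so its signal is uncertain.

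The 3 genes that are neither ligand nor receptor by symbol did not pass. Il6st, with arrays from -0.31 to 0.33, was at -0.0043 ± 0.22 (adjusted p = 0.979), and Il18bp was at 0.039. Il4i1 was at 0.32, 0.45 and 0.0029 in Cy5 and at 0.28, -0.49 and 0.46 in Cy3, with a mean of 0.17 ± 0.17 (adjusted p = 0.175). An array of set 2 was far below the rest, and its probes disagreed, at 0.39 and -0.052. Without set 2 the mean was 0.27 and passed (adjusted p = 0.026).

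The dye orientations were set against each other for the 42 genes and for all genes. With the treated RNA in Cy5 or in Cy3, all 3 arrays of one orientation lay above 0 and all 3 of the other below for 6 of the 42 genes (14.3%), against 13.7% of all genes. The dye part, which is the difference between the orientation means divided by 2, was larger in size than the treatment part for 21 of the 42 genes (50%) and for 51.0% of all genes. In the limma fit of the set differences, 0 of the 42 genes had a dye effect (0.06% of all genes did), while 10 had an unadjusted p under 0.05 (23.8%, against 27.8% of all genes). In a fit of the 6 separate arrays with a dye term, 4 of 42 passed (9.52%, against 3.32% of all genes). Over all probes, turned arrays of 1 orientation correlated at 0.58 to 0.79 and arrays of opposite orientation at -0.054 to 0.52, a description across probes that are not independent.

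**Figure D3:**
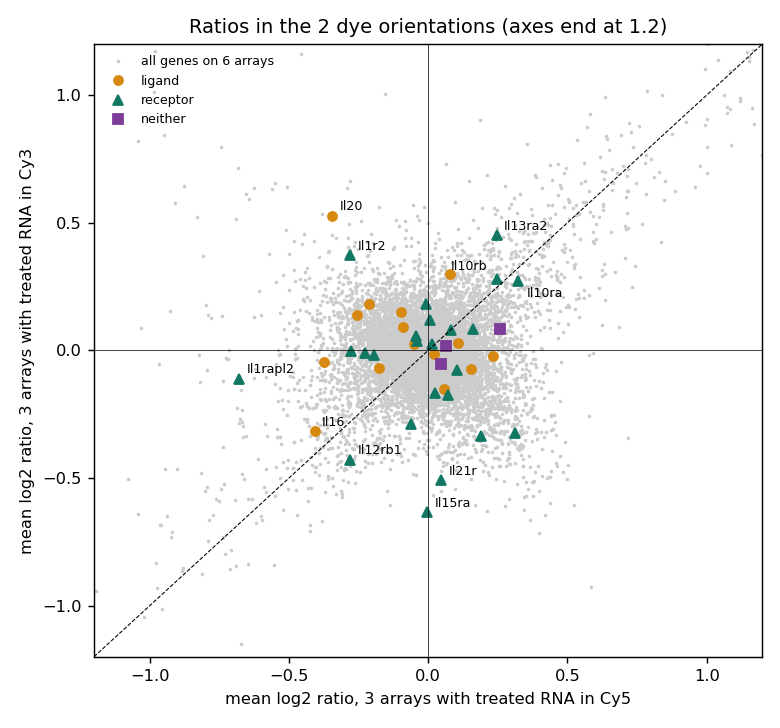
Mean log2 ratio over the 3 arrays with treated RNA in Cy5 (horizontal axis) against the mean over the 3 arrays with treated RNA in Cy3 (vertical axis) for the 42 genes (coloured by role) over all genes (grey), with both axes ending at 1.2. Il16, Il12rb1, Il13ra2, Il10ra and Il10rb lie near the diagonal, Il15ra (-0.0038 and -0.63) and Il1rapl2 (-0.68 and -0.11) lie away from it, and Il20 (-0.34 and 0.53) is on opposite sides of 0.

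Where a gene had several probes measured on all arrays, the probes could be set against each other. This was the case for 18 of the 42 genes. In 14 of them (77.8%) all probe means had the same sign, against 68.7% of 1493 genes in all, and the median spread between probes was 0.049 against 0.066. The 5 called genes with several such probes were Il10rb, Il12rb1, Il13ra2, Il16 and Il17ra. The widest gap was 0.45, in Il4i1.

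The 12 remaining genes, 7 ligands and 5 receptor chains, lacked a ratio on at least 1 array for every probe. They were fitted with all genes over every probe with ratios in at least 2 sets, where a set with 1 array keeps its dye effect. This fit called 8 of the 54 genes, 4 higher and 4 lower. It called 6.53% of all genes, 3.63% as higher and 2.9% as lower. Of the 12, the ligand Il9 and the receptor chain Il7r were higher, and 10 did not pass. Il10ra, with its second probe included, stood at 0.42 in this fit (adjusted p = 0.0124). Il10rb (adjusted p = 0.116), Il17ra (0.0847) and Il34 (0.0822) kept their means and lost their calls in it.

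Il7r, the IL-7 receptor chain that is also part of the receptor for thymic stromal lymphopoietin, is named after its values were seen. It was at 0.49, 0.63 and 0.58 in Cy5 and at 0.65 and 0.79 in Cy3, with no ratio for set 2 in Cy3. All 5 ratios were higher than any mean of the 42 genes above, although a single array of Il10ra among those genes reached 0.88. The mean was 0.63 over 3 sets (adjusted p = 0.00411), and without set 3 it was 0.60 and missed the threshold (adjusted p = 0.0514). With exact 0 values kept as ratios the mean was 0.52 (adjusted p = 0.082).

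Il9, a growth factor of mast cells and T cells, had the highest mean of the 54 genes. It was at 0.71 and 0.41 in Cy5 and at 1.62 and 1.52 in Cy3, with no ratio on either array of set 2. All 4 ratios were above 0, and both in Cy3 were above both in Cy5. The mean was 1.07 over 2 sets (adjusted p = 0.0107), and in the Cy5 orientation alone it was 0.56 (adjusted p = 0.0675). With exact 0 values kept, it was 0.39 (adjusted p = 0.295). A second Il9 probe had a ratio of 0.36 on its only array.

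Il9r, the receptor of IL-9, had a probe that followed the dye: -3.17 and -2.63 in Cy5 and 2.85 in Cy3. Its other probe was at 0.38, 0.63 and 0.029 in Cy5 and 0.23 in Cy3, and the gene's mean of -0.049 did not pass (adjusted p = 0.946). The other 9 genes had means from -0.10 to 0.28. The highest was Il21 at 0.28 (adjusted p = 0.264). Il27ra was at 0.10, Il15 at -0.010, Il33, an alarm signal of the IL-1 family, at -0.020 on 2 arrays, Il7 at -0.039, Il31 at -0.055 on 3 arrays, Il1rl2 at -0.067, and Il22 and Il17rd at -0.10.

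**Figure D4:**
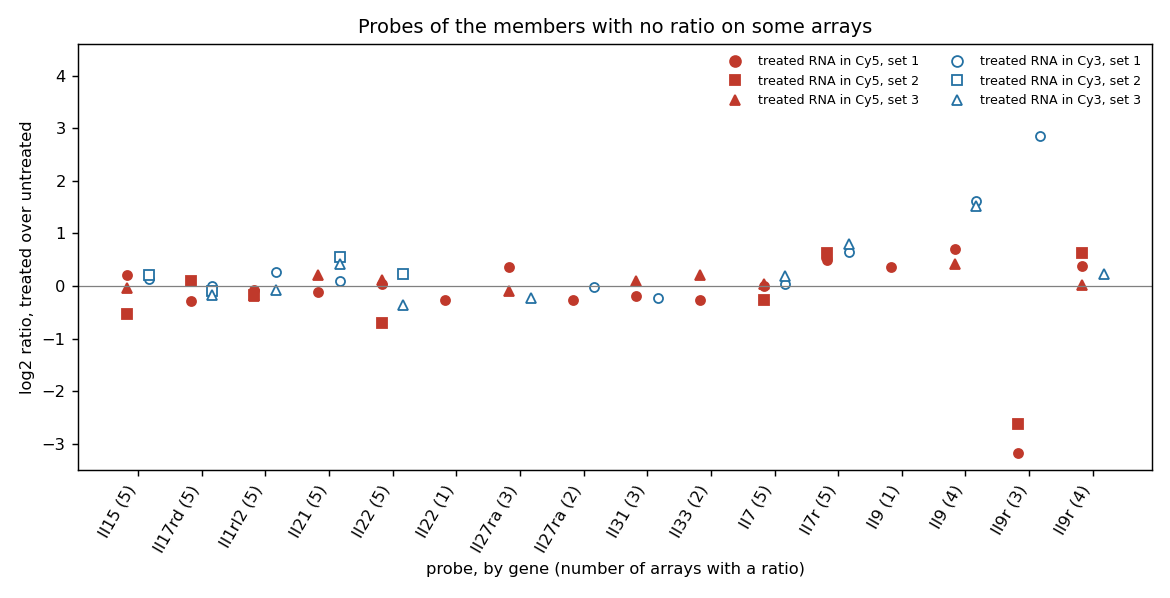
Log2 ratio of treated over untreated RNA per array (vertical axis) for each probe of the 12 genes that lack a ratio on some array; filled red symbols have treated RNA in Cy5, open blue ones in Cy3, and a missing symbol is a missing ratio. Il7r (0.49 to 0.79) and the Il9 probe with ratios on 4 arrays (0.41 to 1.62) are above 0 throughout, and a probe of Il9r runs from -3.17 to 2.85 by dye.

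Genes that act next to these receptors, from a list of 54 shared receptor chains, kinases, STAT factors, adaptors and feedback regulators, were read in the same fit. Of the list, 40 had ratios on all 6 arrays, 6 were higher and 3 lower (22.5%, against 13.2% of all genes), and the median was 0.050. Bcl6, a transcriptional repressor that STAT factors regulate, was the highest at 0.55 ± 0.13 (adjusted p = 0.00242), with all 6 arrays from 0.44 to 0.73. Socs5, a feedback inhibitor of cytokine receptors, was at 0.34 ± 0.066 (adjusted p = 0.00493). Socs5 stood at 0.53 in the Cy5 orientation and at 0.16 in the Cy3 orientation (adjusted p = 0.240 in Cy3 alone). Crlf2, which pairs with Il7r in the receptor for thymic stromal lymphopoietin, was at 0.29 ± 0.033 (adjusted p = 0.00667). Stat3, the factor that IL-10 activates, was at 0.24 ± 0.067 (adjusted p = 0.0185). Stat3 stood at 0.35 in the Cy5 orientation and at 0.14 in the Cy3 orientation (adjusted p = 0.228 in Cy3 alone). The feedback inhibitor Cish was at 0.19 ± 0.079 (adjusted p = 0.0489). Cish stood at 0.35 in the Cy5 orientation and at 0.029 in the Cy3 orientation (adjusted p = 0.863), and its call was also lost with duplicateCorrelation (adjusted p = 0.0601). The adaptor Myd88, named after its value was seen, was at 0.17 ± 0.047 (adjusted p = 0.0476). Leaving out set 1 ended the calls of Socs5, Crlf2, Stat3, Cish and Myd88 (adjusted p = 0.0529, 0.0661, 0.0718, 0.143 and 0.247). Stat3, Cish and Myd88 also missed without set 2 (adjusted p = 0.0639, 0.0857 and 0.109) and without set 3 (0.0535, 0.144 and 0.083).

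Tab1, which links adaptors of the IL-1 receptor to the kinase TAK1, was at -0.43 ± 0.061 (adjusted p = 0.00185), with all 6 arrays from -0.51 to -0.34. Stat2, a factor of interferon signalling, was at -0.48 ± 0.12 (adjusted p = 0.00336), with all 6 arrays from -0.68 to -0.31. Lifr, a partner chain of Il6st, was at -0.23 ± 0.039 (adjusted p = 0.0156), but -0.0056 (adjusted p = 0.961) once its incomplete probes were included. The 4 Janus kinases did not pass, with Jak1 and Jak2 at 0.12, Jak3 at 0.066 and Tyk2 at 0.053. Neither did the feedback genes Socs1 (0.027) and Socs3 (-0.034).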

How the data were processed

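Total RNA of treated and untreated cells was compared on 6 two-colour arrays. The deposited series matrix holds 1 log2 ratio per probe and array (16281 probes). Background correction, normalization and the ratio's direction are not given in the sources used here. Log base 2 was found from the values. Turned array medians lay within 0.016 of 0. Probes with 1 symbol (13738) were used, and 52 with several and 2491 with none were left out, 2 of the 52 naming an interleukin. All 95 gene identifiers matched RefSeq's gene table. A gene was the mean of its probes with ratios on all 6 arrays. Set means were tested against 0 with limma 3.58.1 in R 4.3.3 (lmFit, eBayes, Benjamini-Hochberg over 8331 genes). The fit was first run on simulated data in which the 2 arrays of a set shared their deviation. That run therefore could not test the averaging of same-numbered arrays. Same-numbered arrays did not deviate together (r = 0.020, -0.249 and -0.0587 over 9968 probes). Values of every array are given for genes that passed, for the 6 highest and 6 lowest means, and for incomplete genes whose mean reached 1 over at least 3 arrays. Partner genes are named where they passed, up to 5 in each direction. The members and lists were chosen with earlier results of these data known. Alternatives were incomplete probes, zeros kept, 6 separate arrays, duplicateCorrelation, each set left out, each orientation, median centring, quantile normalization and single probes. The single-probe alternative kept, for each gene, the complete probe with the lowest p. The fit of the dye term and the alternatives for single partner genes were added after seeing the data.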

Additional observations from a re-analysis of the deposited data

Results flagged for a closer look

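In 6 genes every array with treated RNA in Cy5 lay on one side of 0 and every array with treated RNA in Cy3 on the other. They are 6 of 42 (14.3%), and 13.7% of all genes did so. The difference of the orientation means (Cy5 minus Cy3) was -0.87 for Il20, a cytokine of the IL-10 family (-0.34 against 0.53), and -0.65 for the decoy receptor Il1r2 (-0.28 against 0.37). It was 0.53 for Il17rb (0.19 against -0.34) and -0.39 for Il3 (-0.21 against 0.18). It was -0.25 for Il11 (-0.097 against 0.15) and 0.22 for Il23a (0.15 against -0.072). In the limma test of the set differences none of the 6 passed (adjusted p = 0.114 for Il20, Il1r2, Il17rb and Il3, 0.135 for Il11 and 0.174 for Il23a). In limma's fit of the 6 separate arrays the dye term passed for Il20 (adjusted p = 0.0119), Il17rb (0.0332), Il1r2 (0.0474) and Il3 (0.0474), and not for Il11 (0.0913) or Il23a (0.128).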

How the results depend on the processing

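Of 108 repeats (9 called genes under 12 alternatives), 74 kept the call, 34 kept the direction without the call and 0 reversed. Some repeats could not reverse: 6 separate arrays and duplicateCorrelation keep the mean, as does the incomplete-probe fit where it adds no probe. The single-probe repeat took each gene's probe with the lowest p, which favours keeping a call. The other complete probe of Il10rb, Il12rb1 and Il17ra missed (adjusted p = 0.0532, 0.051 and 0.0516). For a gene with 1 complete probe that repeat refitted the same values. Il16 passed under all 12, Il13ra2 and Il1rapl2 under 11, Il15ra under 10, and Il10ra, Il10rb and Il34 under 5. For Il1rapl2 this counts the repeat with zeros kept, which only averaged in a probe of 0s. The 9 calls became 9 with no replicate block (8 of them shared, 2 higher and 7 lower, without Il10ra) and 7 with a replicate block by duplicateCorrelation, and 4 to 7 on leaving out 1 set (4 without set 1). With zeros kept they were 5. The 2 ligand calls became 1 with zeros kept, with the duplicateCorrelation block and without any 1 set. The 7 receptor calls became 4 with zeros kept, 3 in Cy5 alone (1 of the 7 shared, 0 higher), 4 in Cy3 alone (3 of the 7 shared) and 3 to 5 without 1 set. The 9 partner calls became 5 with incomplete probes, 4 with zeros kept and 3 to 6 without 1 set, and Lifr turned to 0.016 with zeros kept. The 8 calls over incomplete probes became 4 in Cy5 alone, 5 in Cy3 alone and 0 to 7 without 1 set. The 1097 calls over all genes became 670 with incomplete probes, 522 with zeros kept, 649 in Cy3 alone, 1439 with no replicate block, 1340 with that block and 499 to 832 without 1 set. The 0 dye calls became 4 with no replicate block. Il21r turned to 0.046 in Cy5 alone. The cause was not tested. No signal over background was analysed here, so what dim spots limit is not known.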
